A study of Mus musculus with 8 samples.

Results

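The DNA break and crosslink repair genes are 38 protein-coding genes, taken by name from a gene count table of 54532 genes, that encode the machinery for double-strand breaks, interstrand crosslinks and the checkpoint that answers them. They were compared between *Zeb1-/- EpCAM+* and *Zeb1-/- EpCAM-* hematopoietic stem and progenitor cells (HSPCs). All cells were LSK cells (Lin- SCA-1+ C-KIT+) from the bone marrow of C57BL/6 mice aged 8 to 12 weeks, collected on day 14 from the final pIpC injection, which induces Cre from *Mx1-Cre* and so deletes the floxed *Zeb1* alleles. Each fraction had 4 RNA-Seq libraries. Both fractions came from *Zeb1*-deleted mice, so the libraries hold no undeleted control, and *Mx1-Cre* is driven by an interferon-responsive promoter that is not restricted to HSPCs. The design names 4 mice per genotype, so fractions with the same replicate number may share a mouse, but whether a library held 1 mouse or a pool was not given in the sources used here.

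Homologous recombination copies the broken sequence from the sister chromatid: the ends are resected by nucleases, the BRCA proteins and their partners prepare the resected strand, and the strand then invades its template, so that the pathway works mostly in S and G2. The Fanconi anemia pathway detects crosslinks that stall replication, attaches ubiquitin to the FANCD2 and FANCI pair through its core complex, and hands the opened lesion to recombination. End joining rejoins the ends directly, with Ku, DNA-PK, XRCC4 and ligase IV, at any stage of the cycle. Inherited loss of Fanconi genes leads to bone marrow failure.

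In *Zeb1-/- EpCAM+* HSPCs, 12 of the 38 genes (31.6%) were lower and 2 (5.26%) were higher than in *EpCAM-* HSPCs at an adjusted p under 0.05 (two-sided edgeR quasi-likelihood test, p adjusted by Benjamini-Hochberg over all 13560 genes tested). Among all genes tested, 20.8% were lower and 21.8% were higher, which is 42.6% in either direction. The lower genes came from homologous recombination (*Bard1*, *Xrcc2*, *Xrcc3*, *Rad54l*), the Fanconi core complex (*Fance*, *Fancf*), the helicases (*Blm*), end resection (*Mre11a*, *Nbn*, *Exo1*), the checkpoint (*Chek1*) and Ku (*Xrcc6*). Both higher genes, *Trp53bp1* and *Xrcc4*, act in end joining. The changes were small: the 12 lower genes stood at 64.3% to 85.5% of their fitted *EpCAM-* level, and no member changed by 1 or more on the log2 scale.

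The median log2 fold change (*EpCAM+* over *EpCAM-*) was -0.10 over the 38 genes and 0.02 over all genes tested, with 28 members below 0 and 10 above. All members passed the filter on low counts. The CPM values of *EpCAM+* and *EpCAM-* libraries were fully separate in 13 of the 38 genes (34.2%), against 40.1% of all genes tested. In 11 of these every *EpCAM+* library lay below every *EpCAM-* library, and in 2 every one lay above.

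**Figure D1:**
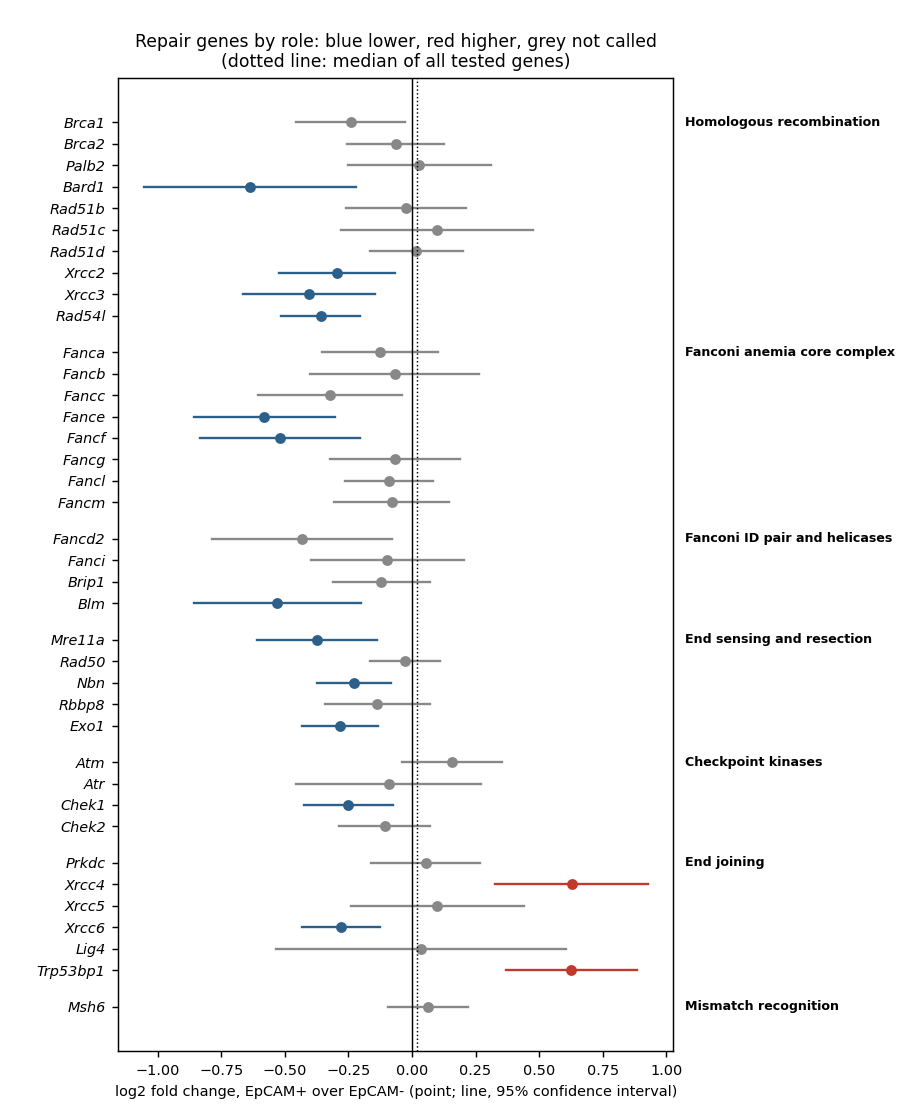
Log2 fold change of each of the 38 repair genes, *EpCAM+* over *EpCAM-*, grouped by role, with points at the edgeR estimate, lines for the 95% confidence interval, and blue, red and grey for lower, higher and not called. The 12 lower genes are spread over all the larger role groups, from -0.64 for *Bard1* to -0.23 for *Nbn*, and both higher genes are among the end joining genes at 0.63.

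The libraries held 15225714 to 17073546 counts in the *EpCAM+* fraction and 14114491 to 15929923 in the *EpCAM-* fraction, and the members had 20 to 2794 counts in each library. *Epcam*, the marker of the sort, stood at 187 ± 32.7 CPM (counts per 1000000 counts of the scaled library; SD, n = 4) in *EpCAM+* and 3.86 ± 3.61 CPM in *EpCAM-* HSPCs (log2 fold change 5.56, edgeR adjusted p = 0.000121). *Zeb1* reads were found in both fractions, at 19.5 ± 3.76 and 11.9 ± 2.14 CPM (log2 fold change 0.72, edgeR adjusted p = 0.00798), and gene-level counts do not separate the deleted from the intact allele. Among cell type lists, 9 of 10 HSC and multipotent progenitor genes were higher in *EpCAM+* HSPCs, and 5 of 9 neutrophil and monocyte genes, 6 of 7 erythroid genes and 4 of 6 mast cell and basophil genes were lower. The summed neutrophil and monocyte level was 1163 to 1865 CPM in *EpCAM+* and 12020 to 19260 CPM in *EpCAM-* libraries, and the erythroid sum was 79.5 to 133 CPM against 465 to 1060 CPM. The dendritic cell sum was 503 to 4820 CPM in *EpCAM+* and 221 to 266 CPM in *EpCAM-* libraries, with replicates 1 and 4 of *EpCAM+* far above replicates 2 and 3. Most of it in replicates 1 and 4 was *H2-Ab1* (4455 and 4530 CPM), and *Xcr1* was also highest there (147 and 131 CPM). Of 6 tested dendritic cell genes 4 were higher, while *Bst2* (-0.02) and *Zbtb46* (-0.29) were not called. The plasma cell sum was 385 to 3961 CPM against 169 to 256 CPM. It was highest in *EpCAM+* replicate 1, where *Jchain* alone stood at 3525 CPM. Of 4 tested plasma cell genes 2 were higher, *Jchain* and *Mzb1*, but DESeq2 gave neither of them an adjusted p. Sums in *EpCAM+* against *EpCAM-* libraries were 69.2 to 92.4 against 237 to 497 CPM for mast cells and basophils, 76.1 to 124 against 49.1 to 83.8 CPM for B cells and 52.6 to 66.9 against 17.1 to 29.1 CPM for T cells. They were 190 to 214 against 78.8 to 106 CPM for epithelium, 126 to 364 against 83.1 to 283 CPM for megakaryocytes and 34.7 to 40.7 against 38.6 to 46.1 CPM for stroma and endothelium. Of the tested genes of these lists, 2 of 5 B cell genes (*Cd79a*, *Ms4a1*), 2 of 2 T cell genes (*Lck*, *Cd4*), 1 of 4 megakaryocyte genes (*Gp9*) and 4 of 4 epithelial genes (*Cdh1*, *Krt8*, *Krt18*, *Ocln*) were higher in *EpCAM+* HSPCs, against 21.8% of all genes tested. The T cell list held 7 genes, of which the others did not pass the filter on low counts, and *Cd4* had only 11 to 48 counts in a library. *Ms4a1* had 21 to 196 counts in *EpCAM+* and 0 to 2 in *EpCAM-* libraries. In the same lists *Pax5*, *Col1a1*, of stroma, and *Krt19* had no counts in any library, and *Cd3e* had at most 1.

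A further fit left out *EpCAM+* replicates 1 and 4, which had the highest dendritic cell sums. All 12 lower genes stayed below 0 (log2 fold change -0.61 to -0.20), but only *Rad54l* and *Fance* were called. The adjusted p of the other 10 was 0.0514 to 0.233 (edgeR, chosen after seeing the data). The number of lower genes among all genes fell from 2818 of 13560 tested to 1856 of 14043 in the same fit, which had fewer libraries. The share of members that were lower was then below the share of all genes that were lower. Both higher members stayed called. With 1 library left out, 8 to 13 members were lower, with 8 in the fit without *EpCAM+* replicate 3. In these fits 2271 to 2950 genes were lower among the 13747 to 13943 genes tested. The part of cell type markers in the results below was not tested, and in these bulk libraries fewer cells of a type and less RNA per cell cannot be told apart.

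The promoters of 4 members are shown, the 2 higher genes and the 2 lower genes with the smallest adjusted p. Each is the 250 bases before the transcription start in RefSeq (GRCm38.p6), on the strand of the gene, and capitals mark the letters of a searched motif. *Trp53bp1* (chr2:121271408-121271657, minus strand) held none of them.
Trp53bp1: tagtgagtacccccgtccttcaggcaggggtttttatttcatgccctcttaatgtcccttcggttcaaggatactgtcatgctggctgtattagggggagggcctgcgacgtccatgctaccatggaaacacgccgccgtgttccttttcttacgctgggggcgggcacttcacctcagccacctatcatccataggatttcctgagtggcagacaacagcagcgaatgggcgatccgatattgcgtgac
*Xrcc4* (chr13:90089609-90089858, minus strand) held an E2F type site, TTCCCGC, 100 bases before its start.
Xrcc4: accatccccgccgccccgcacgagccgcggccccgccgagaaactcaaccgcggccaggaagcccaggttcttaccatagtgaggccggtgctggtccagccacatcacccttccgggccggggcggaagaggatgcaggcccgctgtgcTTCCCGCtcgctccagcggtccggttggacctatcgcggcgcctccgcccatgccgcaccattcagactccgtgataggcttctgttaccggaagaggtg
*Rad54l* (chr4:116123691-116123940, minus strand) held CACCTG 200 bases and CCAAT 50 bases before its start. Its other window, from 116123690, held the same letters at 201 and 51 bases and is not shown.
Rad54l: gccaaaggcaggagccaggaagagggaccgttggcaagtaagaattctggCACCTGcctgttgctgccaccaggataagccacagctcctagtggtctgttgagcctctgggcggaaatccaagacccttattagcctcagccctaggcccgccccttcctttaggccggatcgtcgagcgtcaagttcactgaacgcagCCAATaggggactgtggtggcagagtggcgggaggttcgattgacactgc
*Fance* (chr17:28313280-28313529, plus strand) held ATTGG, which is CCAAT on the opposite strand, 202 bases before its start.
Fance: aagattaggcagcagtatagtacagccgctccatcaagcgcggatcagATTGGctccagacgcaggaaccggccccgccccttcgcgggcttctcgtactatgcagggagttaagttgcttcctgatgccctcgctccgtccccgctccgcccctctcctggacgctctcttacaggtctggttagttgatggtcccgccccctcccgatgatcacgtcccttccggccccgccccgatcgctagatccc

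Promoter windows of 300 bases, from 250 before to 50 after the start, were matched for 30 of the 38 members, all but *Rad51d*, *Xrcc2*, *Fancd2*, *Rad50*, *Nbn*, *Rbbp8*, *Exo1* and *Prkdc*, and searched on both strands for 4 motifs. The E2F type letters searched were TTCGCGC and the spellings with GG (TTGGCGC), with CC (TTCCCGC) and with GC (TTGCCGC) as the third and the fourth letter. One of these spellings, which are bound by the factors of the S phase program, stood in 18 of 30 members (60.0%) and in 10.9% of all 27025 genes with a window. It was present in 5 of the 9 lower members with a window, in 1 of 2 higher members and in 12 of 19 that were not called. CCAAT stood in 19 members (63.3%) against 41.1% of genes, in 7 of 9 lower, 0 of 2 higher and 12 of 19 uncalled members. CACCTG, the E-box type letters that ZEB1 binds, stood in 2 members (6.67%), *Rad54l* and *Fanca*, against 22.6% of genes. The CHR letters TTTGAA stood in 2 members (6.67%), *Bard1* and *Rad51b*, against 20.2% of genes. TTGGCGC and ATTGG share the letters TTGG and can overlap. These matches describe letters in a window and were not tested for binding.

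**Figure D2:**
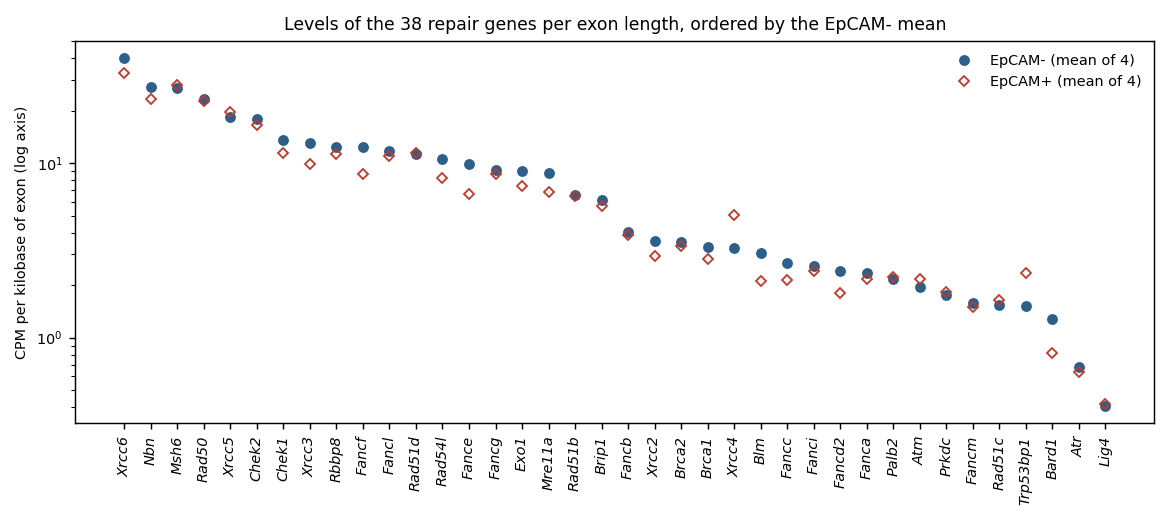
Mean level of each member in both fractions in CPM per kilobase of exon, on a log axis, ordered by the *EpCAM-* mean. *Xrcc6* is the highest in both fractions and *Lig4* the lowest, and the order is otherwise much alike, with *Trp53bp1* and *Xrcc4* set above their *EpCAM-* points.

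Per kilobase of exon, the members spanned levels from 0.408 (*Lig4*) to 40.0 CPM (*Xrcc6*) in *EpCAM-* and from 0.418 to 33.0 CPM in *EpCAM+* HSPCs, with medians of 5.11 and 5.36 CPM per kilobase. *Nbn*, *Msh6*, *Rad50*, *Xrcc5* and *Chek2* followed *Xrcc6* in the *EpCAM-* order, and *Atr* (0.682 CPM per kilobase) and *Bard1* stood just above *Lig4*.

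Of the 10 homologous recombination genes, 4 were lower (40%, against 20.8% of all genes tested), none was higher and the median log2 change was -0.15. Their summed level was 263 to 280 CPM in *EpCAM+* and 298 to 335 CPM in *EpCAM-* libraries. *Rad54l*, a translocase that works during strand invasion, stood at 63.2, 66.6, 59.2 and 65.3 CPM in *EpCAM+* replicates 1 to 4 and at 76.1, 82.1, 81.0 and 87.2 CPM in *EpCAM-* replicates 1 to 4. The fractions did not overlap, and the log2 fold change was -0.36 (SE 0.07, edgeR adjusted p = 0.00281). *Rad54l* shares 15.4% of its exon bases with *Lrrc41* on the opposite strand (log2 fold change -0.14, edgeR adjusted p = 0.21), and neither the kit nor the counting is stated to use strand. In all, 19 members, 8 of them called, share exon bases with a gene on the opposite strand.

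*Xrcc3*, a recombination mediator that pairs with RAD51C, stood at 23.1, 27.4, 29.9 and 28.3 CPM in *EpCAM+* and at 31.0, 33.4, 38.7 and 41.3 CPM in *EpCAM-* libraries. Every *EpCAM+* value lay below every *EpCAM-* value (log2 fold change -0.41, SE 0.12, edgeR adjusted p = 0.0182), and without *EpCAM-* replicate 3 the adjusted p was 0.0517, in a range of 0.00955 to 0.0517 over the fits that left out 1 library. *Bard1*, whose product forms the ubiquitin ligase with BRCA1, stood at 3.86, 5.56, 4.19 and 4.86 CPM against 7.24, 5.70, 7.24 and 8.61 CPM. It had only 59 to 98 counts in *EpCAM+* and 77 to 117 counts in *EpCAM-* libraries, and *EpCAM-* replicate 2 lay just above the highest *EpCAM+* library. Its log2 fold change of -0.64 (SE 0.19, edgeR adjusted p = 0.0202) was the most negative of the 38, and it was no longer called without *EpCAM+* replicate 1 (adjusted p = 0.0512), *EpCAM+* replicate 3 (0.0572) or *EpCAM-* replicate 4 (0.0544), in a range from 0.0129 to 0.0572.

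*Xrcc2*, another recombination mediator, was the weakest call at -0.29 (SE 0.10, edgeR adjusted p = 0.041) and was called in 2 of 8 fits that left out 1 library, where its adjusted p ran from 0.0338 to 0.0971. The adjusted p was 0.0886, 0.0971 and 0.0875 without *EpCAM+* replicates 1, 3 and 4 and 0.0565, 0.0689 and 0.0943 without *EpCAM-* replicates 1, 3 and 4. The remaining recombination genes were not called. *Brca1* was at -0.24 (95% interval -0.46 to -0.03, edgeR adjusted p = 0.0661), with *EpCAM+* values of 21.5 to 26.4 CPM and *EpCAM-* values of 26.1 to 30.8 CPM that overlapped only at *EpCAM+* replicate 2. *Brca2*, a central mediator of recombination, was at -0.06, *Palb2*, which joins BRCA1 to BRCA2, at 0.03, and the other mediators *Rad51b*, *Rad51c* and *Rad51d* were at -0.02, 0.10 and 0.02. The lower genes held the partner of *Brca1* and the mediators *Xrcc2* and *Xrcc3*, while *Brca2* and *Palb2* were among the uncalled. Of the 4 calls in the group, 2 were left without *EpCAM+* replicate 1 or 3 or *EpCAM-* replicate 3 or 4.

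**Figure D3:**
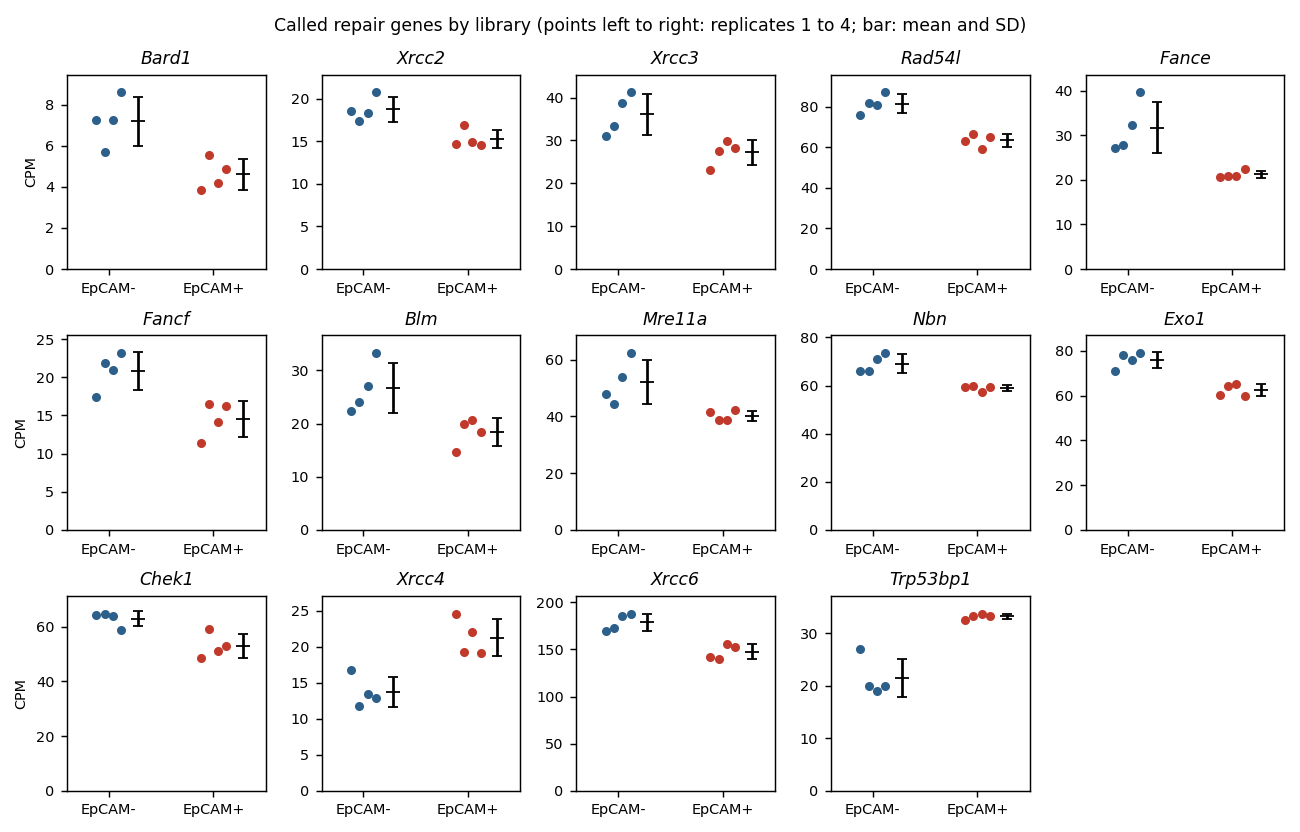
CPM of the 14 called repair genes in each library, *EpCAM-* in blue and *EpCAM+* in red, replicates 1 to 4 from left to right in each fraction, with the mean and SD beside them. For 13 of them, which were called on these same values, the fractions do not overlap. *Chek1* is the exception, with *EpCAM+* replicate 2 above *EpCAM-* replicate 4. The 13 are 34.2% of the 38 members, against 40.1% of all genes tested.

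Of the 8 Fanconi core genes, 2 were lower (25%), a share near the 20.8% of all genes tested. All 8 estimates were below 0 with a median of -0.11, but *Fancb*, *Fancg* and *Fancm* were above 0 with upper-quartile scaling and library totals. *Fance*, the subunit that contacts FANCD2, stood at 20.7, 20.8, 21.0 and 22.4 CPM in *EpCAM+* and at 27.0, 27.8, 32.4 and 39.6 CPM in *EpCAM-* libraries. The *EpCAM+* libraries were close together (SD 0.791) and the *EpCAM-* libraries spread (SD 5.79), without overlap, and the log2 fold change was -0.58 (SE 0.12, edgeR adjusted p = 0.00449). *Fancf*, an adaptor that holds the core together, stood at 11.4, 16.5, 14.1 and 16.2 CPM against 17.4, 21.9, 20.9 and 23.2 CPM, with the fractions again apart (-0.52, SE 0.14, edgeR adjusted p = 0.0146). *Fancf* shares 14.96% of its exon bases with *Gas2* on the opposite strand, which was also lower (-0.64, edgeR adjusted p = 0.0214), and unstranded reads of the pair cannot be told apart.

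The other core genes were not called. *Fancc* was at -0.32 with values of 16.4 to 19.2 CPM in *EpCAM+* and 18.8 to 25.97 CPM in *EpCAM-* libraries (edgeR adjusted p = 0.0634, and 0.0481 with the replicate number as a block). *Fanca* was at -0.13, and *Fancb*, *Fancg*, *Fancl*, the ubiquitin ligase subunit, and *Fancm*, the translocase that meets stalled forks, were between -0.09 and -0.07. *Fancg* was lower in 4 of 4 pairs of libraries with the same number, by 0.04 to 0.10 on the log2 scale, while *Fancb* was lower in 2 of 4, and the *Fancg* values ran from 29.1 to 38.6 CPM in *EpCAM+* and from 30.4 to 40.3 CPM in *EpCAM-* libraries.

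Downstream of the core, 1 of 4 genes was lower (25%), a share near the 20.8% of all genes tested. *Blm*, the RecQ helicase that dissolves joined recombination intermediates, stood at 14.7, 19.9, 20.7 and 18.4 CPM in *EpCAM+* and at 22.4, 24.1, 27.0 and 33.2 CPM in *EpCAM-* libraries, without overlap (-0.53, SE 0.15, edgeR adjusted p = 0.0161). *Fancd2*, the ubiquitin acceptor of the pathway, stood at 12.03, 14.5, 12.5 and 17.8 CPM against 16.5, 18.4, 17.8 and 24.1 CPM. It was lower by 0.34 to 0.51 on the log2 scale in each of 4 pairs of libraries with the same number, and its log2 fold change was -0.43 (edgeR adjusted p = 0.0507, and 0.00511 with the replicate number as a block). It was also called without *EpCAM+* replicate 4 or *EpCAM-* replicate 1. Its partner *Fanci* was at -0.10 and the helicase gene *Brip1* at -0.12, both uncalled.

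Among the 5 end sensing and resection genes, 3 were lower (60%, against 20.8% of all genes tested). Their median was -0.23, and their summed levels were 318 to 334 CPM against 355 to 396 CPM. *Exo1*, a nuclease of long-range resection, stood at 60.3, 64.3, 65.3 and 59.9 CPM in *EpCAM+* and at 71.0, 78.3, 76.0 and 79.0 CPM in *EpCAM-* libraries. These values did not overlap (-0.28, SE 0.07, edgeR adjusted p = 0.00727). *Mre11a*, the nuclease that starts resection, stood at 41.4, 38.7, 38.8 and 42.1 CPM against 47.9, 44.3, 53.8 and 62.3 CPM (-0.37, SE 0.11, edgeR adjusted p = 0.0175), and its *EpCAM-* libraries were again the more spread.

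*Nbn*, which brings ATM to the break, stood at 59.3, 60.0, 57.4 and 59.5 CPM in *EpCAM+* and at 65.9, 65.9, 71.1 and 73.5 CPM in *EpCAM-* libraries. The fractions were apart, by -0.23 (SE 0.07, edgeR adjusted p = 0.0191). Without *EpCAM+* replicate 3 the adjusted p was 0.0569, in a range of 0.0143 to 0.0569 over the fits that left out 1 library, and with upper-quartile scaling or library totals *Nbn* was not called. *Rad50*, the third subunit of the same complex, was at -0.03, with 117 to 130 CPM in *EpCAM+* and 122 to 129 CPM in *EpCAM-* libraries, and its 95% interval of -0.17 to 0.11 leaves out a change as large as the estimates of *Mre11a* and *Nbn*, though the difference between the genes was not tested. *Rbbp8*, which encodes the MRE11 cofactor CtIP, was at -0.14 and not called.

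Of the 4 checkpoint kinases, 1 was lower (25%), a share near the 20.8% of all genes tested. *Chek1*, the effector kinase downstream of ATR, stood at 48.6, 59.2, 50.9 and 52.7 CPM in *EpCAM+* and at 64.3, 64.6, 63.8 and 58.8 CPM in *EpCAM-* libraries. The ranges overlapped by *EpCAM+* replicate 2 and *EpCAM-* replicate 4, and the log2 fold change was -0.25 (SE 0.08, edgeR adjusted p = 0.027). It was not called without *EpCAM+* replicate 1, 3 or 4 (adjusted p = 0.0713, 0.0732 and 0.0567) or *EpCAM-* replicate 3 (0.059), in a range from 0.0136 to 0.0732, nor with upper-quartile scaling or library totals. *Atr* was at -0.09 and *Chek2* at -0.11. *Atm*, the apical kinase of the response to double-strand breaks, was the uncalled gene with the most positive estimate (0.16, edgeR adjusted p = 0.178), with 21.7 to 23.3 CPM in *EpCAM+* and 19.3 to 22.4 CPM in *EpCAM-* libraries.

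The 6 end joining genes were the only role group with called genes in both directions, 2 higher and 1 lower, against 21.8% and 20.8% of all genes tested. Their median was 0.08, against -0.15 for recombination. The 18 other end joining and break signaling genes, counted below, went the other way, with 9 lower, none higher and a median of -0.27. *Trp53bp1*, whose product shields ends from resection, stood at 32.4, 33.3, 33.6 and 33.3 CPM in *EpCAM+* and at 26.9, 19.98, 19.0 and 19.9 CPM in *EpCAM-* libraries. The *EpCAM+* libraries were close together (SD 0.515), *EpCAM-* replicate 1 stood above the other *EpCAM-* libraries, and the fractions did not overlap (0.63, SE 0.12, edgeR adjusted p = 0.00209). *Trp53bp1* shares 15.04% of its exon bases with *Tubgcp4* on the opposite strand, which was at 0.06 (edgeR adjusted p = 0.702). *Xrcc4*, the scaffold of ligase IV, stood at 24.6, 19.3, 22.02 and 19.1 CPM against 16.7, 11.8, 13.5 and 12.9 CPM, apart in every library (0.63, SE 0.14, edgeR adjusted p = 0.00461).

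*Xrcc6*, one Ku subunit and the most abundant member, moved the other way, at 142, 139, 156 and 153 CPM in *EpCAM+* and at 170, 173, 186 and 188 CPM in *EpCAM-* libraries, without overlap (-0.28, SE 0.07, edgeR adjusted p = 0.00877). *Xrcc6* shares 7.69% of its exon bases with *Desi1* on the opposite strand, which was also lower (-0.37, edgeR adjusted p = 0.00313). *Xrcc5*, the other Ku subunit, was at 0.10 and not called, with 47.9 to 54.8 CPM in *EpCAM+* libraries inside the 35.4 to 62.0 CPM of the *EpCAM-* libraries. *Prkdc*, the DNA-PK catalytic subunit, was at 0.05. *Lig4*, which seals the ends, had only 20 to 44 counts in a library, and its 95% interval of -0.54 to 0.61 was the widest of the 38, with room for a difference as large as that of *Fancf* in either direction. *Msh6*, which recognizes mismatches, was at 0.06 (edgeR adjusted p = 0.49).

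Over the 24 uncalled members, estimates ran from -0.43 to 0.16, and their 95% intervals reached 0.14 to 0.57 to either side. The interval of 21 of them lay within 0.5 of 0 on the log2 scale. *Brca1*, *Fancc* and *Fancd2* were the 3 uncalled members with an unadjusted p under 0.05.

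**Figure D4:**
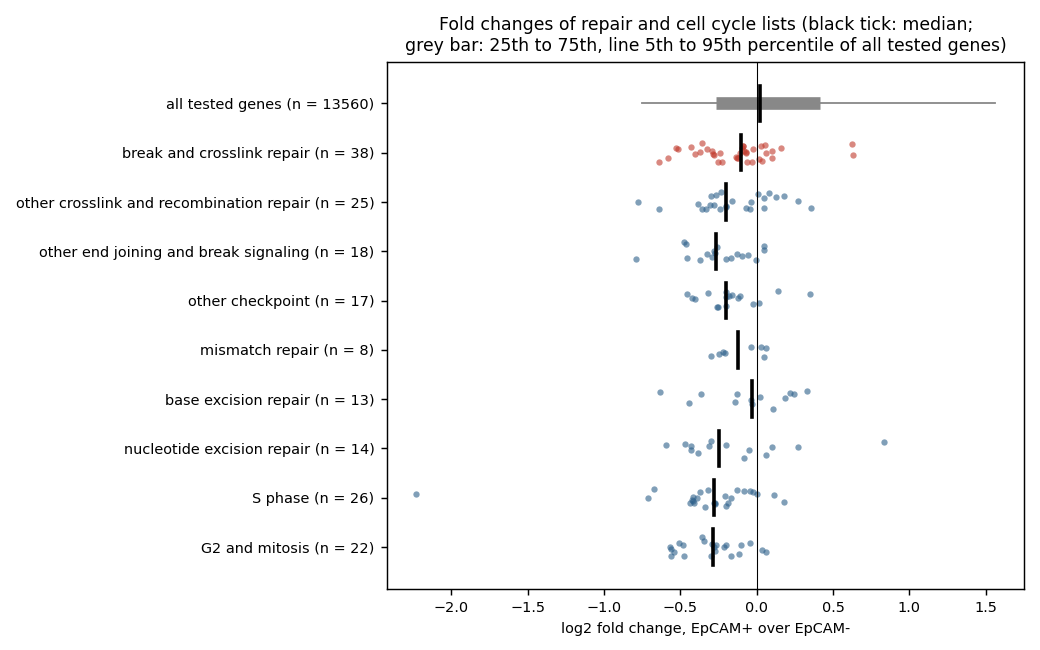
Log2 fold changes (*EpCAM+* over *EpCAM-*) of the repair genes, other repair and cell cycle lists, and all tested genes, with a black tick at each median and a grey bar and line for the middle 50% and 90% of all tested genes. The medians of the listed groups lie from -0.29 (G2 and mitosis) to -0.03 (base excision repair), all below the 0.02 of all genes.

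Other genes of the same pathways were counted against the 20.8% of all tested genes that were lower in *EpCAM+* HSPCs. Of 25 other crosslink and recombination genes, 8 were lower and none higher (median -0.20), including *Faap24*, a core partner of FANCM (-0.77, SE 0.09, edgeR adjusted p = 0.000226), *Usp1*, which removes ubiquitin from FANCD2 (-0.33), and *Swi5*, a recombination cofactor (-0.30). Of 18 other end joining and break signaling genes, 9 were lower and none higher (median -0.27), including *Aplf* (-0.79) and *Xrcc1* (-0.30). Of 17 other checkpoint genes, 7 were lower and 1 was higher (median -0.20), with *Rad17* at -0.46, *Cdc25a*, a phosphatase that CHK1 restrains, at -0.43 and *Rad9a* at -0.25. The higher gene was *Wee1*, a brake on entry into mitosis named after its value was seen, at 0.35, and it was not called without *EpCAM+* replicate 1, 2 or 3 or *EpCAM-* replicate 3 or 4. Of 8 mismatch repair genes, 2 were lower, including *Pold1* (-0.30), a share near that of all genes. None of the 8 was lower with upper-quartile scaling or library totals, or without *EpCAM+* replicate 3 or *EpCAM-* replicate 3, where the edgeR adjusted p of *Pold1* was 0.0654, 0.0676, 0.0571 and 0.0565. Under upper-quartile scaling and library totals, 4 and 4 of the other crosslink and recombination genes, 6 and 3 of the other end joining genes and 4 and 3 of the other checkpoint genes were lower. *Swi5* was not called under either scaling, and *Xrcc1* and *Rad9a* were not called with library totals. The other checkpoint genes also had 4 lower without *EpCAM+* replicate 3.

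Cell cycle genes were also lower in *EpCAM+* HSPCs, against the same 20.8% of all genes. Of 26 S phase genes, 15 were lower and none higher (median -0.28), with *Ccne1* at -2.23, *Rrm2* at -0.71 and *Cdc6* at -0.67. Their summed level was 4900 to 5527 CPM in *EpCAM+* and 6037 to 6966 CPM in *EpCAM-* libraries. Of 22 G2 and mitosis genes, 13 were lower and none higher (median -0.29), with *Ccna2* at -0.57, *Aurka* at -0.51 and *Aurkb* at -0.48, and their sum was 3306 to 4121 CPM against 4372 to 5414 CPM. With upper-quartile scaling and library totals, 12 and 10 S phase genes and 6 and 7 G2 and mitosis genes were lower, and 8 G2 and mitosis genes were lower without *EpCAM+* replicate 3 or *EpCAM-* replicate 4. With the replicate number as a block, 18 S phase and 16 G2 and mitosis genes were lower. The 38 repair genes summed to 1372 to 1425 CPM in *EpCAM+* and 1493 to 1622 CPM in *EpCAM-* libraries. The part of the cell cycle genes in the repair result was not tested.

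**Figure D5:**
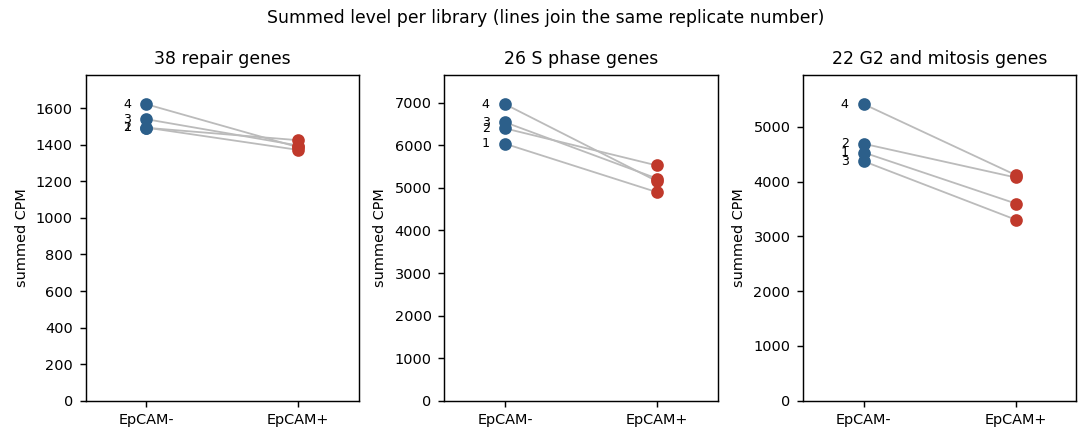
Summed CPM of the 38 repair genes, 26 S phase genes and 22 G2 and mitosis genes in each library, with lines joining libraries of the same replicate number. In all 3 panels every *EpCAM+* library lies below every *EpCAM-* library.

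The scaling of the libraries bears on these small differences. TMM factors were 0.9999 to 1.0555 for *EpCAM+* and 0.9486 to 1.0069 for *EpCAM-* libraries, and per 1000000 counts of the raw total the members summed to 1379 to 1501 in *EpCAM+* and 1429 to 1537 in *EpCAM-* libraries, which overlap. With upper-quartile scaling or library totals in place of TMM, 9 members were lower in each fit and 2 higher, and *Xrcc2*, *Nbn* and *Chek1* were lost. In those fits 15.4% and 15.2% of all genes were lower, 63.6% and 62.7% of all calls were higher genes, against 51.2% with TMM, and the median of the members was -0.02 against 0.11 over all genes. *Brca2*, *Rad51b*, *Fancb*, *Fancg*, *Fancm* and *Rad50*, none of them called, changed sign under both scalings. *Trp53bp1* and *Xrcc4* were higher, and *Rad54l* and *Fance* lower, with an adjusted p under 0.05 in all 15 alternative fits.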

How the data were processed

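The 8 libraries were made from total RNA of sorted LSK cells with SMART-Seq v4 amplification and a NEBNext library kit and sequenced as paired-end reads. Per the labels, the authors aligned reads to GRCm38.p6 with STAR 2.6.1d and counted them with featureCounts 1.5.0-p3. The deposited values used here are raw read counts per gene. The annotation release, strand setting and treatment of reads with several hits are not given in the sources used here. The 8 FPKM columns and the authors' fold changes and p-values (both fractions, and single pairs of libraries, made with DESeq2 1.20.0) were not used.

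Counts of all genes were filtered with filterByExpr, scaled by TMM and tested with edgeR 4.0.16 (R 4.3.3, limma 3.58.1) by the quasi-likelihood test. DESeq2 1.42.0, other scalings, no filter, a replicate block and leaving out each library were alternatives. One fit without 2 libraries was added after seeing the data. The tests were also run on simulated counts with larger changes than those of the members and no replicate effect. That run does not show how they perform on changes this small or on libraries that deviate together. CPM used TMM-scaled totals, and levels per kilobase the deposited gene length. The study names 4 mice per genotype but not which mouse gave each library, so p-values and intervals measure the spread between these libraries, which may be partly technical. No 2 libraries of a fraction agreed within sampling noise (chi-square per degree of freedom 10.6 to 101). Fold changes stand for relative expression within a library.

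Members and lists were chosen with earlier results of these data known. Values in every library are given for up to 3 called members per role with the smallest adjusted p and for called members opposed to their group, and up to 3 called genes were named per other list, apart from some that are not reported here. Same-numbered libraries deviated together (correlation of deviations from the fraction means 0.205 to 0.356 in 4 pairs, -0.216 to 0.0396 in the 12 other pairs), and the numbers come from the labels. The fit with the replicate number as a block pairs libraries by these numbers. The main fit, which gave the calls and intervals, does not. Whether the same number marks the same mouse was not given. Promoters came from RefSeq and exon overlaps from GENCODE M21, in which 36 of 38 members had the deposited coordinates. Plots were made in matplotlib 3.10.9 under Python 3.11.15.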

Additional observations from a re-analysis of the deposited data

Results flagged for a closer look

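In 4 of 80 groups of 4 libraries examined, 1 library stood apart from the other 3 by Dixon's criterion (critical value 0.829), and chance gives about 1 in 20 such groups. *Xrcc2* was highest in *EpCAM+* replicate 2, at 16.9 CPM against 14.6 to 14.9 CPM in the others (ratio of the gap to the range 0.873). *Atm* was highest in *EpCAM-* replicate 2, at 22.4 CPM against 19.3 to 19.7 CPM (0.846). *Chek1* was lowest in *EpCAM-* replicate 4, at 58.8 CPM against 63.8 to 64.6 CPM (0.87). *Trp53bp1* was highest in *EpCAM-* replicate 1, at 26.9 CPM against 19.0 to 19.98 CPM (0.852), and stayed below every *EpCAM+* library.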

How the results depend on the processing

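Under DESeq2 in place of edgeR, 14 members were lower and 2 higher (against 17.8% and 18.4% of all genes). With DESeq2 size factors 13 were lower (against 21.3% of all genes) and 2 higher (against 2903 of 13560 genes). With the replicate number as a block, which pairs libraries of the same number, 14 members were lower (against 24.7% of all genes) and 2 higher (against 25.6%), *Fancc* and *Fancd2* being added, and every call without the block was kept. The block also gave 10 lower other end joining genes, 8 other checkpoint genes and 7 nucleotide excision repair genes. Without a filter on low counts *Xrcc2* was lost. With any 1 library left out, 8 to 13 members were lower, lowest without *EpCAM+* replicate 3, and 2 were higher in each fit. Among the 13747 to 13943 genes tested in these fits, 2271 to 2950 were lower and 2391 to 3089 higher. The Fanconi pair and helicase group had 2 lower genes under DESeq2, its size factors and the block, and nucleotide excision repair had 1 higher gene under DESeq2 and without a filter. Upper-quartile scaling and library totals each gave 0 lower checkpoint kinases, 0 lower mismatch repair genes and 4 lower other crosslink and recombination genes. Other checkpoint genes had 4 and 3 lower, G2 and mitosis genes 6 and 7, and with library totals other end joining genes had 3.

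Without *EpCAM+* replicates 1 and 4 together, 2 of the 38 members were lower and 2 higher, against 1856 lower and 1819 higher among all 14043 genes tested. The members' share was thus below that of all genes in either direction. Lower genes then numbered 1 in recombination, 1 in the Fanconi core and 0 in the Fanconi pair and helicase, resection, checkpoint and end joining groups, 5 in other crosslink and recombination, 3 each in other end joining, other checkpoint and nucleotide excision repair, 1 in base excision repair, 0 in mismatch repair, 9 in S phase and 8 in G2 and mitosis. Higher genes numbered 0 in base and 1 in nucleotide excision repair. Counts fell over all genes in this fit of fewer libraries, and what else bears on them was not tested.

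With 1 library left out, lower genes numbered 2 to 5 in recombination, 1 to 2 in the Fanconi pair and helicases, 0 to 1 among checkpoint kinases, 4 to 7 among other checkpoint genes with 0 to 1 higher, 0 to 2 in mismatch repair and 8 to 14 in G2 and mitosis, and higher genes 1 to 2 in nucleotide excision repair. Without *EpCAM+* replicate 3, other checkpoint genes had 4 lower, mismatch repair 0 and G2 and mitosis 8, mismatch repair also had 0 without *EpCAM-* replicate 3 and 1 without *EpCAM+* replicate 1, and G2 and mitosis also had 8 without *EpCAM-* replicate 4.

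Changes of sign were seen only for members that were not called. Under upper-quartile scaling and library totals the log2 fold changes were 0.0229 and 0.021 for *Brca2*, 0.0612 and 0.0608 for *Rad51b*, 0.0166 and 0.0181 for *Fancb*, 0.0171 and 0.0139 for *Fancg*, 0.006 and 0.0051 for *Fancm*, and 0.0582 and 0.0572 for *Rad50*. *Rad51d* was at -0.0031 under DESeq2. Without both *EpCAM+* libraries *Palb2* was at -0.1001, *Rad51d* at -0.0074, *Fancb* at 0.0258 and *Rad50* at 0.0222. With 1 library left out, values ran from -0.136 to 0.0464 for *Fancb*, -0.157 to 0.0112 for *Fancg*, -0.1091 to 0.1325 for *Lig4*, -0.0498 to 0.0995 for *Palb2*, -0.0036 to 0.0901 for *Prkdc*, -0.1018 to 0.0423 for *Rad51b*, -0.0147 to 0.1803 for *Rad51c*, -0.0314 to 0.0625 for *Rad51d* and -0.0214 to 0.2572 for *Xrcc5*. The causes were not tested. Depth limits *Lig4* and *Bard1* most, with 20 to 44 and 59 to 117 counts.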

Other observations

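Excision repair genes outside the break and crosslink pathways showed changes in both directions. Of 13 base excision repair genes tested, 3 were lower and 1 was higher in *EpCAM+* HSPCs (median log2 fold change -0.03). The share of lower genes was near the 20.8% of all genes tested, and the share of higher genes (7.69%) was below the 21.8% of all genes. *Tdg*, the glycosylase that removes thymine from G:T mismatches, was at 49.0 CPM in *EpCAM+* and 75.9 CPM in *EpCAM-* libraries (-0.63, SE 0.11, edgeR adjusted p = 0.00179), and *Apex1*, the abasic site endonuclease, was at -0.37 (edgeR adjusted p = 0.0109). *Neil3*, a glycosylase that can also unhook crosslinks, was higher, at 86.1 against 68.4 CPM (0.33, SE 0.07, edgeR adjusted p = 0.0044).

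Of 14 nucleotide excision repair genes, 6 (42.9%) were lower and 2 (14.3%) were higher (median -0.25), against 20.8% and 21.8% of all genes tested. *Gtf2h1*, a subunit of the repair and transcription factor TFIIH, was at -0.59 (SE 0.12, edgeR adjusted p = 0.00328). *Ddb2*, whose product recognizes ultraviolet lesions, was higher in *EpCAM+* HSPCs, at 31.8 against 17.8 CPM (0.84, SE 0.12, edgeR adjusted p = 0.000526). The other higher gene, *Ercc6*, of transcription-coupled repair and named after its value was seen, was at 0.27 (edgeR adjusted p = 0.0356), and 1 higher gene was left in this list without *EpCAM+* replicate 3 or 4 or *EpCAM-* replicate 1, 2 or 4.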
